A study of Mus musculus with 4 samples.

Results

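The genes described here handle iron, heme and iron-sulfur clusters in cultured mouse adipocytes. They are 29 genes, chosen by function: transferrin iron uptake, metal reduction and export, ferritin storage, the iron regulatory proteins, the enzymes that make and break down heme, and the mitochondrial machinery that builds iron-sulfur clusters and lipoate. A gene was represented by its brightest probe set among those whose annotation names that gene alone. Of the 29 genes, 27 had such a probe set, against 18193 genes on the whole array. After a filter on dim probe sets, 26 of the 29 were among the 13173 genes tested. The other three were Alas2, whose signal was below the filter, and Trf and Ftl1, which were named only in probe sets shared with other genes and were not analysed here.

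RNA came from cultured brown-like adipocytes. They had been derived from the stromal vascular fraction of epididymal white fat, the mixed cells left after mature fat cells are removed. The donors were male mice aged 4 months, either wild-type or homozygous for an Lgr4 mutation whose type the labels do not give; Lgr4 is a receptor for R-spondins that strengthens Wnt signalling. Each genotype had 2 arrays, 4 in all, and the design asks whether loss of Lgr4 favours brown-like differentiation of these cells. The growth medium of both genotypes was DMEM containing 10 ng/ml basic fibroblast growth factor, antibiotics and 10% fetal bovine serum. At confluence both received 5 µg/ml insulin, 0.5 mM IBMX, 1 µM dexamethasone, 50 nM of the thyroid hormone T3 and 5 µM of the PPARγ agonist troglitazone for 48 h. Insulin, T3 and troglitazone were then kept for 6 days. The arrays are labelled biological replicates, with no statement of separate animals or cultures, so each p-value reflects the scatter of these particular arrays, part of which may be technical.

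Most cells take up iron as transferrin bound to the transferrin receptor, reduce it in endosomes and pass it to the cytosol, where it is used, stored in ferritin or exported by ferroportin. Mitochondria are the main consumers: they join glycine and succinyl-CoA into the first heme precursor, insert iron into the finished porphyrin, and assemble iron-sulfur clusters on a scaffold protein. Brown adipocytes are rich in mitochondria, whose respiratory complexes and lipoate-dependent dehydrogenases carry these cofactors.

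The 4 arrays had median log2 signals from 6.65 to 6.69. Over probe sets, the wild-type arrays correlated at 0.995 (Pearson), the mutant arrays at 0.998, and arrays of different genotype at 0.982 to 0.987. Lgr4 itself checked the labels: its log2 signal was 8.65 and 8.20 in wild-type cells and 6.18 and 6.09 in mutant cells (limma adjusted p = 1.45e-05). Ucp1, the uncoupling protein that defines brown fat, was below the filter value of 6.13 in wild-type cells at 4.99 and 5.86 and reached 8.17 and 7.49 in mutant cells (limma adjusted p = 5.68e-04). Adipocyte markers rose in mutant cells in 9 of 9 genes tested (median log2 difference 2.92). Their summed signal on the log2 scale was 15.23 and 15.20 in wild-type cells against 16.69 and 16.67 in mutant cells. Macrophage markers fell in 6 of 14, with 8 not passing and all 14 differences negative, and their summed log2 signal was 16.95 and 17.05 against 16.74 and 16.75. The macrophage gene Lyz2 was bright on every array, from 14.75 to 14.94, so the labelled adipocyte cultures also held strong myeloid transcripts. Among other types, progenitor markers fell in 3 of 7 tested, and endothelial markers rose in 1 and fell in 1 of 7. Erythroid markers rose in 1 of 3, with the globin gene Hba-a1 below the filter at 4.86 to 5.24. Over all 13173 genes tested, 11.1% rose and 18.7% fell, near the endothelial counts, and 7204 differences were negative. The endothelial rise, of Cdh5, was lost with median centring and with probe sets averaged, and the erythroid one, of Epor, with median centring. In such bulk samples fewer cells of a type and less RNA per cell cannot be told apart, and the part of these shifts in the results on iron genes was not tested.

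Of the 26 iron, heme and iron-sulfur genes tested, 11 rose in Lgr4 mutant cells, none fell and 15 did not pass limma's test at an adjusted p of 0.05. The genes that rose were Steap4, Cp, Alas1, Aco1, Lias, Tfrc, Alad, Glrx5, Uros, Isca1 and Isca2, from 7.80-fold for Steap4 down to 1.28-fold for Isca2. Over all genes tested 11.1% rose and 18.7% fell, which is 1456 and 2468 genes. Without adjustment, 14 of the 26 had a p below 0.05 and a positive difference, and 0 had one and a negative difference. The median log2 difference, mutant minus wild-type, was 0.23 over the 26 genes and -0.03 over all genes tested. Both mutant arrays lay above both wild-type arrays for 18 of the 26 and below them for 3, and for 5 the genotypes overlapped. Over all genes those shares were 28.9% above and 39.9% below. With 1 array left out, the genes called among all tested ranged from 809 to 2627 higher and from 1042 to 3722 lower. Among the iron genes, none fell until wild-type replicate 1 was left out, when Hmox1 and Hmox2 passed as lower, or wild-type replicate 2, when Ireb2 did.

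**Figure D1:**
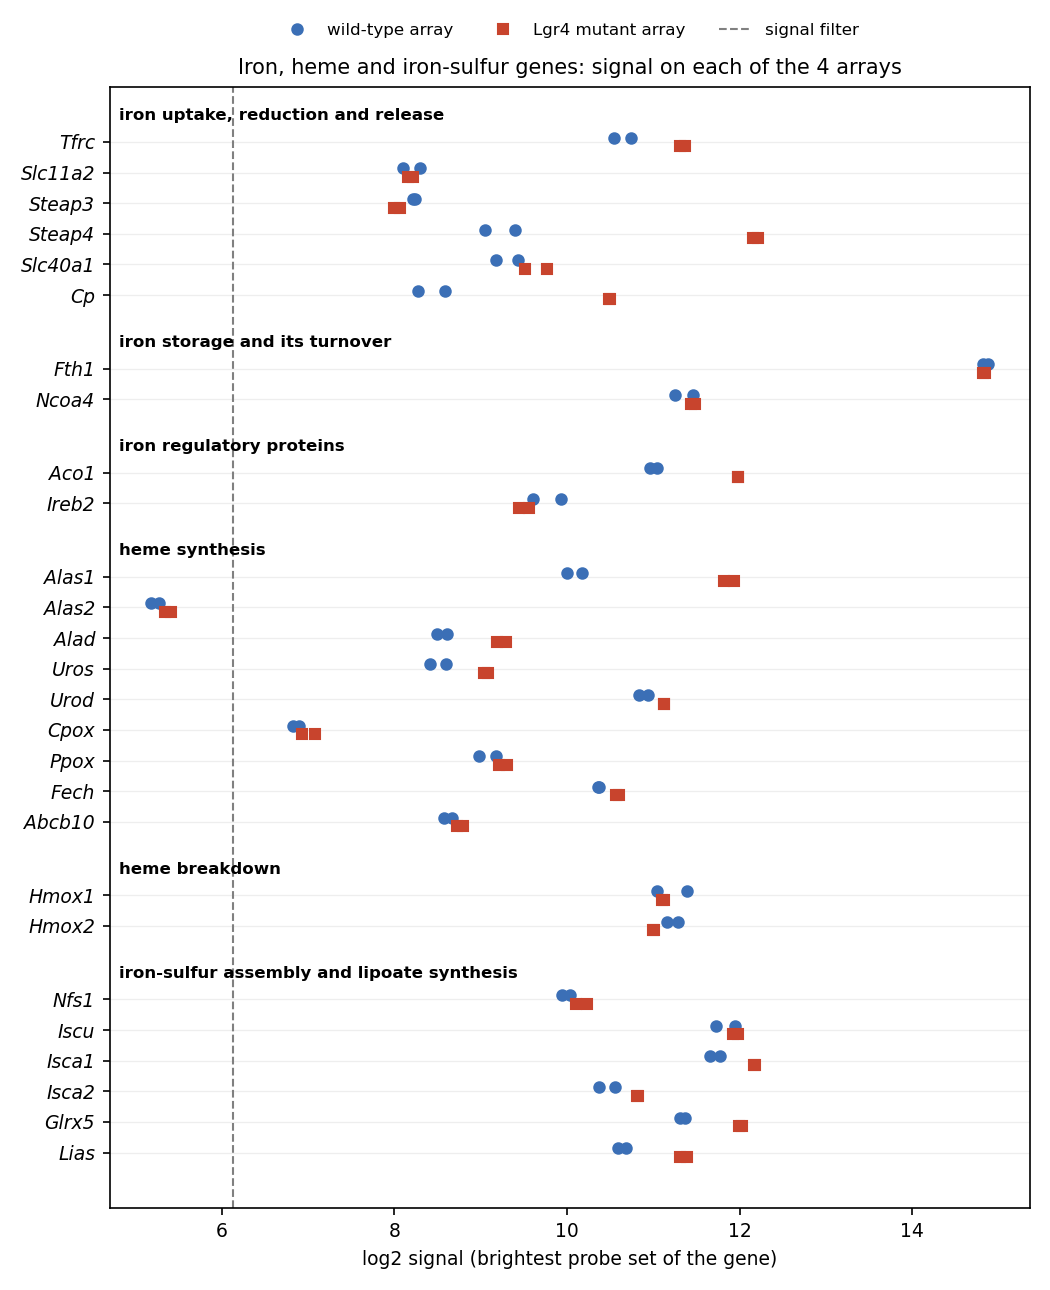
Log2 signal of the iron, heme and iron-sulfur genes on each of the 4 arrays, grouped by role, with 1 point per array coloured by genotype. The mutant points of Steap4, Cp and Alas1 stand farthest above the wild-type points, while those of Fth1 and Slc11a2 overlap them.

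The members that bring iron in and move it across membranes included the 2 genes with the largest differences. Steap4, a metalloreductase of plasma and endosomal membranes that is abundant in fat, had log2 signals of 9.40 and 9.04 in wild-type cells and 12.16 and 12.21 in mutant cells. Its difference was 2.96 (SE 0.127, 95% interval 2.67 to 3.25), a 7.80-fold rise (limma adjusted p = 1.87e-06). Both mutant arrays were far above both wild-type arrays, beyond the spread of either pair.

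Ceruloplasmin, Cp, is the copper ferroxidase that oxidises iron as it leaves the cell and loads it on transferrin. It had log2 signals of 8.27 and 8.59 in wild-type cells and 10.49 and 10.50 in mutant cells. The difference was 2.06 (SE 0.12, 95% interval 1.79 to 2.34), or 4.18-fold (limma adjusted p = 9.26e-06). Cp is covered by 8 probe sets naming it alone, and all were higher in mutant cells. The 7 above the filter differed by 0.77 to 2.24. The dimmer of the 2 Steap4 probe sets also rose, by 1.21, from 6.30 on both wild-type arrays to 7.60 and 7.43.

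Tfrc, the transferrin receptor, was at 10.55 and 10.74 in wild-type cells and 11.31 and 11.37 in mutant cells. The difference was 0.69 (SE 0.104, 95% interval 0.46 to 0.93), 1.62-fold (limma adjusted p = 0.00184), and the genotypes did not overlap. This call rested on 1 bright probe set: the other two, near or below the filter, differed by 0.10 and -0.20. With all 3 probe sets averaged the difference was 0.20 and the call was lost (limma adjusted p = 0.136).

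The remaining transport members did not pass the test. Slc40a1 encodes ferroportin, the iron exporter through which Cp draws its substrate. Its log2 signals were 9.43 and 9.17 in wild-type cells and 9.77 and 9.51 in mutant cells, a difference of 0.34 (95% interval 0.05 to 0.63, limma adjusted p = 0.0774). On this probe set the mutant arrays were above the wild-type arrays. Slc40a1 passed the test after quantile normalization (limma adjusted p = 0.036) and with the replicate number as a block (limma adjusted p = 0.0127). The block fit gave extreme values, such as a limma adjusted p of 2.42e-136 for Steap4, which are not comparable with those of the main fit. With 1 array left out the Slc40a1 difference ranged from 0.21 to 0.47, the largest without wild-type replicate 1. Whether it was called depended on the array left out. Its second probe set, also above the filter, differed by 0.06 with overlapping genotypes. With probe sets averaged the difference was 0.20 and did not pass (limma adjusted p = 0.323). Slc11a2, the transporter that carries reduced iron out of endosomes, was at 8.09 and 8.30 against 8.16 and 8.21 (95% interval of the difference -0.25 to 0.23). Steap3, the endosomal reductase best known from red cell precursors, was at 8.23 and 8.21 against 8.07 and 7.997 (difference -0.19, limma adjusted p = 0.159). Of the 2 reductases, Steap4 thus rose 7.80-fold and Steap3 did not pass.

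The 250 bases upstream of the annotated Steap4 start are printed because this gene had the largest difference. They lie at chr5:7960222-7960471 on the plus strand (RefSeq, GRCm38.p6), and capitals mark the match to the C/EBP motif, searched as TTGCNNAA on both strands. C/EBP factors are regulators of adipocyte differentiation.
Steap4: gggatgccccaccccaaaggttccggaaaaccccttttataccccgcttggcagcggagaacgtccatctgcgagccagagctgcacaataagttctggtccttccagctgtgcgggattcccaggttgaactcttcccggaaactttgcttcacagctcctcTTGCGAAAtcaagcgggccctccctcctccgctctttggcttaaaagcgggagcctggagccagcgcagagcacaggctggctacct
The match is 87 bases before the start. RefSeq promoter entries were found for 23 of the 29 genes, with 36 starts between them, and Trf, Slc11a2, Slc40a1, Fech, Hmox1 and Iscu had no entry. The motif was in 13.9% of these 36 windows and in 9.56% of all 32851 mouse promoter windows of the same length. It occurred in 3 of the 11 genes that rose (Steap4, Cp and Isca2). Of the 10 with an entry that did not pass, 2 also held it (Steap3 and Fth1). The sites in Cp (chr3:19957169-19957196, plus strand, 70 bases before a start), Isca2 (chr12:84773120-84773147, plus strand, 140 bases before) and Steap3 (chr1:120270476-120270503, minus strand, 223 bases before) are shown for comparison, with the match in capitals.
Cp: ttagttactcTTTTGCAAcattaaattg
Isca2: accgacccacTTCGGCAAgtggaagcgt
Steap3: ctccccctccTTTTGCAAggccaagtct
The 8 letters in Cp and Steap3 are identical, although Cp differed by 2.06 and Steap3 by -0.19 on the log2 scale. A match describes the letters and says nothing of binding.

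**Figure D2:**
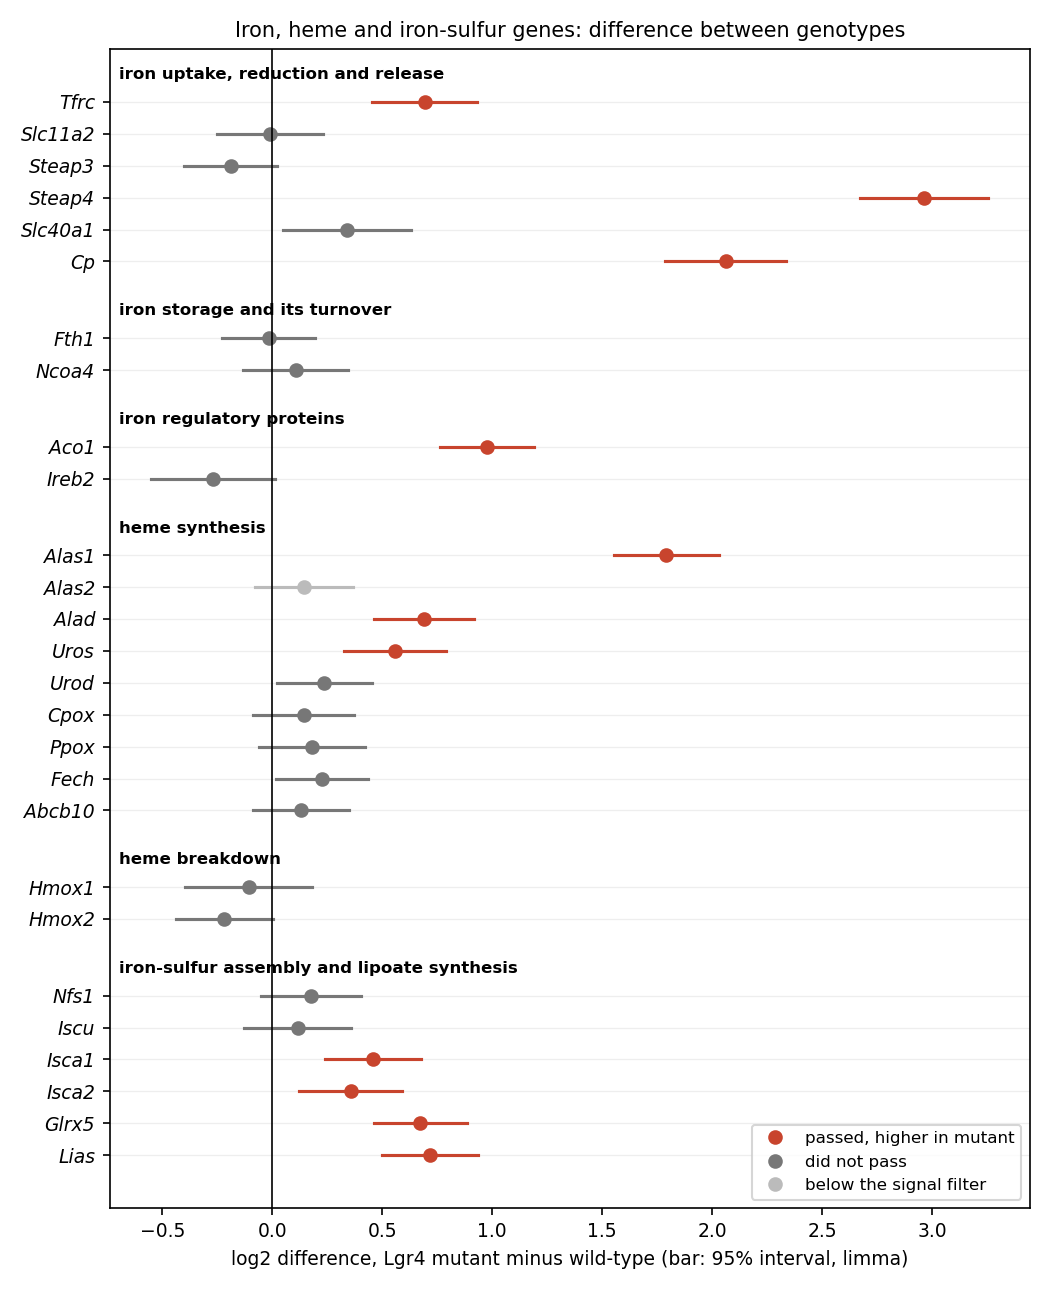
Log2 difference, mutant minus wild-type, of each gene with a probe set naming it alone, with its 95% confidence interval from limma. Genes are ordered by role and marked by whether they passed the test, and Alas2 is marked as below the filter. Intervals of Steap4, Cp and Alas1 lie above 1.5, and none of the intervals of the 11 called genes reaches 0.

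Neither storage gene tested passed. Fth1, the ferritin heavy chain that oxidises and stores iron, had log2 signals of 14.82 and 14.88 in wild-type cells and 14.82 and 14.84 in mutant cells. The difference was -0.02 with a 95% interval of -0.23 to 0.20 (limma adjusted p = 0.916). Its signal was at the 99.99th percentile of all genes, near the top of the range, where array signals are compressed. Ncoa4, the receptor that sends ferritin to lysosomes for iron release, was at 11.46 and 11.26 against 11.48 and 11.44 (difference 0.11, 95% interval -0.13 to 0.34). On these probe sets both genes overlapped between genotypes. A second, also very bright, Fth1 probe set was at 14.48 and 14.54 against 14.35 and 14.38 (difference -0.14), with both mutant arrays below both wild-type arrays.

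Of the iron regulatory proteins, which bind stem-loops in the mRNAs of ferritin and the transferrin receptor, 1 rose and the other did not pass. Aco1, a cytosolic aconitase that becomes an RNA-binding regulator when it loses its iron-sulfur cluster, was at 11.05 and 10.96 in wild-type cells and 11.98 on both mutant arrays. It rose by 0.98 (SE 0.0931, 95% interval 0.76 to 1.19), or 1.97-fold (limma adjusted p = 1.62e-04). The probe set used carries the platform's mark for possible cross-hybridisation. A second Aco1 probe set without it went from 9.12 and 9.23 to 10.66 and 10.67, a difference of 1.49. Ireb2, the regulator that is degraded when iron is plentiful, was at 9.93 and 9.61 against 9.55 and 9.45. Its difference of -0.27 (95% interval -0.55 to 0.01, limma adjusted p = 0.136) passed only without wild-type replicate 2, at -0.43 (limma adjusted p = 0.00542).

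Heme synthesis rose at its entry step and at 2 of the early cytosolic steps. On the probe set used, all 8 tested genes of this group had higher signals on both mutant arrays than on both wild-type arrays. Over all genes tested that share was 28.9%. The test was passed by 3, against 11.1% of all genes passing as higher, and the other 5 differed by 0.13 to 0.24. Alas1, the housekeeping aminolevulinate synthase that starts and limits the pathway, was at 10.00 and 10.17 in wild-type cells and 11.93 and 11.82 in mutant cells. It rose by 1.79 (SE 0.104, 95% interval 1.55 to 2.03), or 3.46-fold (limma adjusted p = 9.26e-06). Its dimmer probe set, which carries the mark for possible cross-hybridisation, moved from 7.92 on both wild-type arrays to 9.40 and 9.38, a difference of 1.47. The erythroid isoenzyme Alas2 stayed below the filter on all arrays, at 5.18 and 5.27 against 5.41 and 5.33.

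Alad, which joins the products of the first step into porphobilinogen, was at 8.49 and 8.61 in wild-type cells and 9.29 and 9.18 in mutant cells. It rose by 0.69 (SE 0.0991), 1.61-fold (limma adjusted p = 0.00147). Uros, which closes the porphyrin ring, was at 8.59 and 8.41 against 9.04 and 9.08. It rose by 0.56 (SE 0.102), 1.47-fold (limma adjusted p = 0.0047). Neither gene overlapped between genotypes on the probe set used, but the second probe set of each, dimmer, differed by 0.22 in Alad and 0.07 in Uros. Averaged over probe sets the rises were 0.46 for Alad and 0.31 for Uros, and both still passed.

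Genes of the later steps gave small positive differences that did not pass. Urod, which trims the side chains of the porphyrin, was at 10.94 and 10.83 against 11.13 and 11.12 (difference 0.24, limma adjusted p = 0.0944). Fech, the ferrochelatase that inserts iron, was at 10.37 and 10.35 against 10.57 and 10.61 (difference 0.22, limma adjusted p = 0.099). For these 2 genes the 95% interval, 0.02 to 0.45 and 0.02 to 0.43, left out 0 before adjustment. Both passed in some alternatives: Urod with its probe sets averaged (limma adjusted p = 0.049) and without wild-type replicate 1 (0.0278), and Fech after quantile normalization (limma adjusted p = 0.0455). Ppox, the oxidase before the iron insertion step, was at 8.98 and 9.18 against 9.31 and 9.21 (difference 0.18), and passed only without wild-type replicate 2 (limma adjusted p = 0.0312). Cpox, the oxidase before that, was at 6.89 and 6.83 against 7.08 and 6.93 (difference 0.14). A second Cpox probe set above the filter had the opposite sign, at -0.30. Abcb10, an inner-membrane transporter needed for heme synthesis, was at 8.67 and 8.58 against 8.72 and 8.79 (difference 0.13). Its other probe set above the filter overlapped between genotypes (0.05). The other Fech probe sets above the filter also overlapped, at -0.02 to 0.12. Both other Ppox probe sets, below the filter, were lower on the mutant arrays (-0.04 and -0.11). With probe sets averaged, Fech differed by 0.10 (limma adjusted p = 0.422) and Ppox by 0.01 (limma adjusted p = 0.932). On the probe sets used, the difference was therefore 1.79 at the first enzyme and 0.22 at the last. Whether these differ was not tested.

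Promoter windows holding the core of the NRF1 motif are shown because NRF1, a factor known for nuclear genes of mitochondria, matched 3 of the genes that rose. That choice was made after the calls were known. The core was searched as GCGCANGCG on both strands. It was in 5 of the 36 windows of these genes (13.9%) and in 5.16% of all 32851 windows. It was in 3 of the 11 genes that rose (Alas1, Uros and Isca1). Of the 10 with an entry that did not pass, 2 also held it (Abcb10 and Ncoa4). Capitals mark the match, and lines are in RefSeq GRCm38.p6 at chr9:106247935-106247963 and chr9:106247907-106247935 (Alas1, minus strand, 223 and 195 bases before the more downstream start), chr7:133709323-133709351 (Uros, minus strand, 46 bases before), chr8:123983136-123983164 (Abcb10, minus strand, 32 bases before) and chr14:32159830-32159858 (Ncoa4, plus strand, 47 bases before).
Alas1 distal: cttcggcgcgCGCGTGCGCgcggcaggcc
Alas1 proximal: cgcacccaagGCGCATGCGCggcggtcac
Uros: ggtcacactgCGCCTGCGCgagtcccgcc
Abcb10: cctgagtgccGCGCATGCGCactccgcca
Ncoa4: agaagactttGCGCAGGCGcggaaggaaa
The proximal Alas1 match and the Abcb10 match share the same run in capitals, while Alas1 differed by 1.79 and Abcb10 by 0.13. Of the other motifs searched on both strands, the E-box CACGTG was in 11.1% of the 36 windows (Alad, Uros and Urod) against 6.02% of all. The cyclic AMP response element TGACGTCA was in none of them against 1.55% of all.

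Heme breakdown did not rise. Hmox1, the inducible heme oxygenase, was at 11.04 and 11.39 in wild-type cells and 11.12 and 11.10 in mutant cells. Its wild-type arrays lay on both sides of the mutant arrays, and its difference was -0.11 (95% interval -0.40 to 0.18, limma adjusted p = 0.55). Hmox2, the constitutive form, was at 11.16 and 11.28 against 10.99 and 11.00, a difference of -0.22 (95% interval -0.44 to 0.00, limma adjusted p = 0.122). Each passed as lower without wild-type replicate 1, at -0.28.

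In the iron-sulfur and lipoate group, 4 of 6 genes rose, against 11.1% of all genes tested. All 6 differences were positive, as were 5969 of the 13173 over all genes tested. Lias, Glrx5, Isca1 and Isca2 rose, and Nfs1 and Iscu did not pass. Lias, the mitochondrial lipoate synthase that itself uses iron-sulfur clusters, was at 10.68 and 10.59 in wild-type cells and 11.39 and 11.31 in mutant cells. It rose by 0.72 (SE 0.0953, 95% interval 0.50 to 0.93), 1.64-fold (limma adjusted p = 9.94e-04). A second bright Lias probe set differed by 0.76. Glrx5, the glutaredoxin that passes new clusters from the scaffold to later carriers, was at 11.30 and 11.37 against 12.02 and 12.00. It rose by 0.67 (SE 0.0922, 95% interval 0.46 to 0.89), 1.60-fold (limma adjusted p = 0.00115). Its genotypes were separated by far more than either pair differed.

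Isca1 and Isca2, partner proteins needed for the larger clusters of mitochondrial enzymes, also rose. Isca1 was at 11.77 and 11.66 in wild-type cells and 12.16 and 12.18 in mutant cells, a rise of 0.46 (SE 0.095), 1.37-fold (limma adjusted p = 0.00861). Its second probe set differed by 0.65. Isca2 was at 10.37 and 10.56 against 10.83 and 10.82, a rise of 0.36 (SE 0.102), 1.28-fold (limma adjusted p = 0.031). Both calls were lost when either mutant array was left out, although the differences hardly moved: adjusted p was 0.0791 and 0.0813 for Isca1, and 0.209 and 0.183 for Isca2. Nfs1, the cysteine desulfurase that supplies sulfur, was at 10.03 and 9.94 against 10.23 and 10.10 (difference 0.18, 95% interval -0.05 to 0.40, limma adjusted p = 0.209). Iscu, the scaffold, was at 11.73 and 11.94 against 11.92 and 11.98 (difference 0.12, 95% interval -0.13 to 0.36, limma adjusted p = 0.441), with overlapping genotypes.

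The 250 bases upstream of the Isca1 start, at chr13:59769790-59770039 on the minus strand (RefSeq, GRCm38.p6), are printed because this window held matches to 3 of the motifs searched. Capitals mark, from left to right, a run where the ERR core AAGGTCA overlaps an antioxidant response element (TGACNNNGC), a further antioxidant response element, and the NRF1 core.
Isca1: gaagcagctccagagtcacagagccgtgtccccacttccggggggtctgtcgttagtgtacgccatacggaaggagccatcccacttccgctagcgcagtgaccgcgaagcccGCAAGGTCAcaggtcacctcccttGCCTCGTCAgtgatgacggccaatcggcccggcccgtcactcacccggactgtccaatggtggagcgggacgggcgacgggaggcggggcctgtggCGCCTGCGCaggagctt
The matches begin 137, 113 and 17 bases before the start. The ERR core, bound by estrogen-related receptors, was in 5.56% of the 36 windows (Isca1 and Alas2) and 4.08% of all; the antioxidant response element was in 8.33% (Isca1, Nfs1 and Ncoa4) and 10.2% of all. Isca1 rose by 0.46 and its neighbours in this search, Nfs1 and Ncoa4, did not pass.

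**Figure D3:**
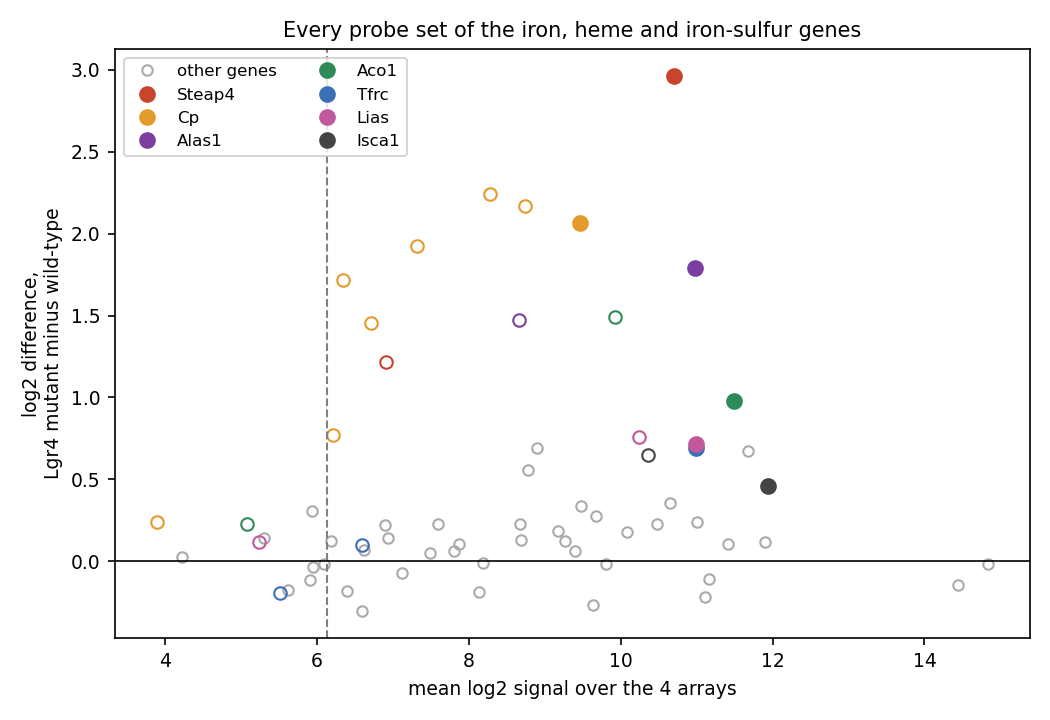
Log2 difference, mutant minus wild-type, against mean log2 signal for each of the 65 probe sets naming 1 of these genes; filled points are the probe set used for Steap4, Cp, Alas1, Aco1, Tfrc, Lias and Isca1, open coloured points their other probe sets, grey points those of the other genes, and the dashed line the filter at 6.13. Other probe sets of Steap4, Cp, Alas1, Aco1, Lias and Isca1 above the filter lie above 0.6, while the dim ones of Tfrc lie near 0.

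Of the 27 genes, 20 had more than 1 probe set and 7 had a single one. Of the 65 probe sets, 54 were above the filter. The mark for possible cross-hybridisation was on the used probe sets of Aco1 and Urod and on another of Alas1, Cp and Steap3. Steap4, Cp, Alas1, Aco1, Isca1 and Lias therefore rose on at least 2 probe sets each above the filter, Glrx5 and Isca2 had a single one, and Tfrc, Alad and Uros rose on the brighter alone.

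Genes around these 29 were grouped by pathway into lists that were chosen with earlier results of these data known. The counts of these lists, here and below, are therefore no independent support. Among 21 tested genes of other iron handling, 4 rose and 5 fell (median -0.07), against 11.1% and 18.7% of all genes. Lcn2, a lipocalin that binds iron-laden siderophores, was at 6.79 and 6.97 in wild-type cells and 8.18 and 8.45 in mutant cells, 2.70-fold higher (limma adjusted p = 8.68e-05). Steap2, a relative of Steap4, moved the other way, from 10.18 and 9.97 to 8.79 and 9.01 (difference -1.17, limma adjusted p = 2.10e-04). Steap1, also of this family, went from 9.24 and 9.35 to 8.24 and 8.70 (difference -0.83, limma adjusted p = 0.00427). Within the Steap family, then, Steap4 rose, Steap1 and Steap2 fell and Steap3 did not pass. The other genes called, named after their values were seen, were Cisd1 (0.53), Hephl1 (0.47) and Bdh2 (0.34) upward, and Slc39a14 (-0.72), Slc39a8 (-0.67) and Fbxl5 (-0.33) downward. Slc39a14 and Slc39a8 import iron that is not bound to transferrin. The call of Fbxl5 was lost after quantile normalization.

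Among 16 tested genes of other heme handling, 6 rose and 4 fell (median 0.17), against 11.1% and 18.7% of all genes. After quantile normalization the split was 5 and 2, and with probe sets averaged 4 and 2. Hebp1, a heme-binding protein, went from 9.68 and 9.52 to 10.52 and 10.40 (difference 0.86, limma adjusted p = 5.59e-04). Bach1, a repressor released from DNA by heme, went from 10.75 and 10.49 to 9.87 and 9.89 (difference -0.74, limma adjusted p = 0.00192), while its known target Hmox1 did not pass. Cox15, which converts heme for cytochrome oxidase, went from 8.34 and 8.10 to 8.74 and 8.64 (difference 0.47, limma adjusted p = 0.0152), a call lost without mutant replicate 1. The Cox15 probe set used carries the mark for possible cross-hybridisation. Clpx, Abcb6, Flvcr2 and Cox10 also passed as higher, by 0.31 to 0.43. The other three that fell were Flvcr1 (-0.43), the heme exporter, Abcg2 (-0.34) and Slc48a1 (-0.32); these 7 were named after their values were seen. Of these calls, Flvcr2 was lost after quantile normalization, with median centring and with probe sets averaged. Slc48a1 was lost after quantile normalization and with averaging, Abcg2 after quantile normalization, and Clpx and Flvcr1 with averaging.

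Among 21 tested genes of other iron-sulfur assembly, 9 rose and 1 fell (median 0.14), against 11.1% and 18.7% of all genes. Fdx1, a mitochondrial ferredoxin, went from 10.22 and 10.26 to 11.41 and 11.17 (2.07-fold, limma adjusted p = 2.55e-04). Bola3, which works beside Glrx5 in cluster delivery, went from 10.09 and 10.17 to 11.11 and 11.05 (1.93-fold, limma adjusted p = 2.02e-04). Hspa9, the chaperone that helps release clusters from Iscu, went from 11.02 and 10.85 to 11.82 and 11.69 (1.77-fold, limma adjusted p = 7.59e-04). With probe sets averaged these rises shrank for Bola3, from 0.95 to 0.51, and for Hspa9, from 0.82 to 0.49, and both still passed. With averaging 8 genes of this list passed as higher, the call of Lipt1 being lost. The one that fell, named after its value was seen, was Ciao2a (-0.44), of the cytosolic assembly pathway.

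Whereas 11.1% of all genes tested rose, those for proteins that carry the finished cofactors rose in 17 of 18 tested. Their products hold iron-sulfur clusters, lipoate or heme; Cyb5a (-0.12) did not pass, and the median was 0.93. With probe sets averaged 16 passed as higher, Dlst being lost. Dlat, the lipoate-bearing subunit of pyruvate dehydrogenase, was at 9.69 and 9.50 in wild-type cells and 11.16 and 11.19 in mutant cells (2.99-fold, limma adjusted p = 1.79e-05). Cycs, cytochrome c, was at 12.11 and 12.05 against 13.55 and 13.61 (2.82-fold, limma adjusted p = 1.40e-05). Cat, the heme enzyme catalase, was at 11.13 and 11.15 against 12.44 and 12.68 (2.68-fold, limma adjusted p = 4.66e-05). The 9 adipocyte markers, also all higher, had a median difference of 2.92, and their part in these counts was not tested.

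**Figure D4:**
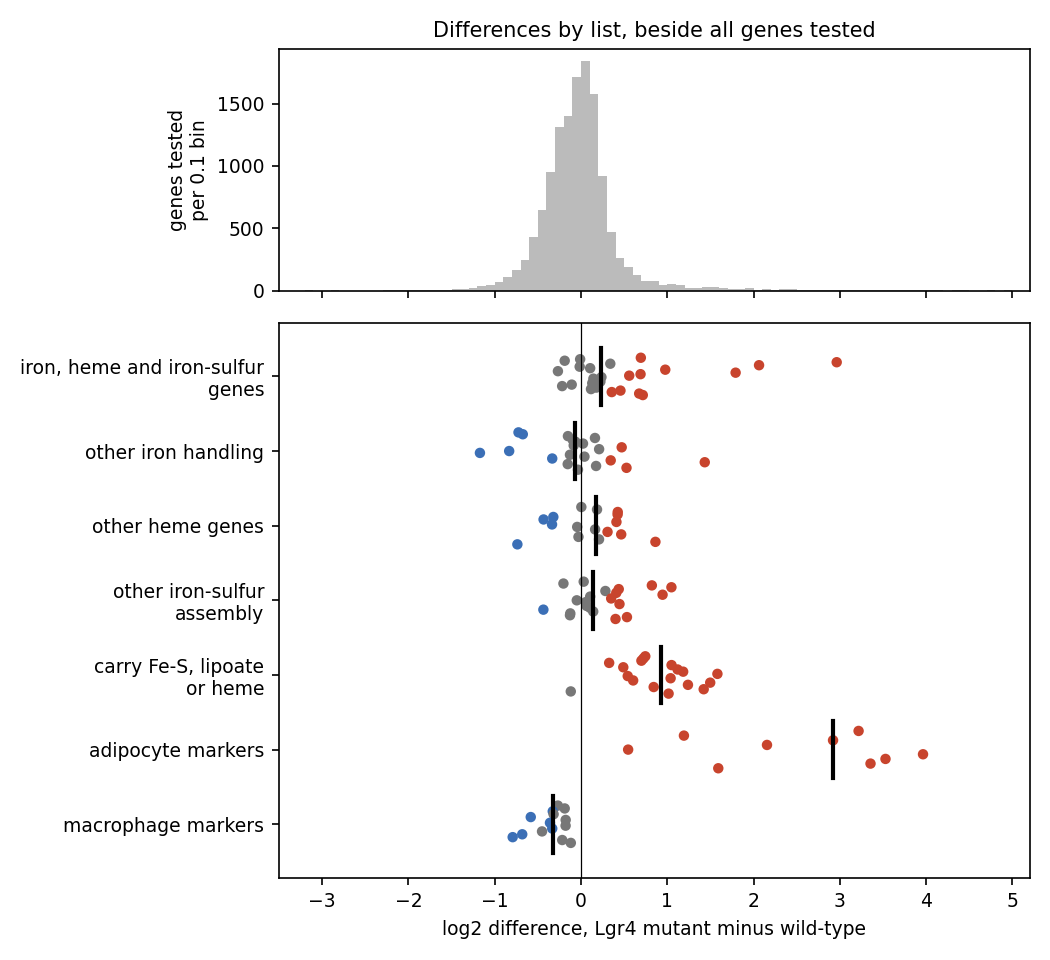
Log2 differences, mutant minus wild-type, of the iron, heme and iron-sulfur genes, the related lists and the adipocyte and macrophage markers. Only tested genes are drawn. Red points rose, blue fell, grey did not pass, and black bars are medians. Above them is a histogram of all 13173 genes tested in bins of 0.1. Carriers of the cofactors and adipocyte markers lie almost wholly to the right of 0, macrophage markers to the left, and iron handling genes on both sides.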

How the data were processed

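Total RNA was labelled from 500 ng per sample with an Affymetrix 3' kit, per the labels' protocols. The deposited values were log2 signals per probe set, made by the authors with Partek 6.6 and RMA, per the submitters' processing notes; its variant is not given in the sources used here. RMA makes array distributions alike, which removes differences in total RNA, and it compresses dim and very bright signals. Of 45101 probe sets, 64 were controls, 34945 named 1 gene, 932 several and 9160 none; 204 of those naming 1 gene had no match in the RefSeq gene table (GRCm38.p6). The brightest probe set per gene by the mean of the 4 arrays was used, and genes above the 40th percentile of signals (log2 6.13) were tested. The test of mutant against wild-type was limma's (version 3.58.1, R 4.3.3; lmFit and eBayes without trend, 2 residual and 6.21 prior degrees of freedom, prior SD 0.104), 2-sided, with Benjamini-Hochberg adjustment over 13173 genes at 0.05. Alas2 has values from the same fit without the filter. Precision is limited by the number of arrays. The fit was tested on simulated data. Alternatives were no filter, the 60th percentile, averaged probe sets, quantile normalization, median centring, an intensity trend, the replicate number as a block, and each array left out. The genes and lists were chosen with earlier results of these data known. All 29 genes are named, and of each related list the 3 called genes with the largest difference. Promoter windows were the 250 bases before each start in RefSeq (GRCm38.p6).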

Additional observations from a re-analysis of the deposited data

How the results depend on the processing

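Of the 11 genes called higher, 8 were called under all 11 alternatives: Steap4, Cp, Aco1, Alas1, Alad, Uros, Glrx5 and Lias. Tfrc was lost with probe sets averaged (0.20), and Isca1 and Isca2 without either mutant array. Called higher were 11 with no filter, at the 60th percentile, with probe sets averaged, with median centring and with an intensity trend, 13 after quantile normalization, and 9 to 13 with 1 array left out. With 1 array left out, 0 to 2 of these genes were called lower, and among all genes 809 to 2627 were called higher and 1042 to 3722 lower; the cause was not tested, and the lone array of a genotype is then assumed to vary like the other genotype's pair. With the replicate number as a block 12 were called higher, Slc40a1 being added, and 1802 and 3077 genes overall. The block fit gave extreme values, such as a limma adjusted p of 2.42e-136 for Steap4, which are not comparable with those of the main fit. Samples sharing a number had a correlation of deviations of 0.159 with only 2 pairs, so the number may be no more than a name. Of the 15 not called, 8 were called under no alternative run, which for Cpox was 9 of the 11. Signs reversed for 3 of these genes, none of them called: Slc11a2 at 0.0358 with probe sets averaged, 0.0524 after quantile normalization and -0.111 to 0.0912 with 1 array left out, Fth1 at 0.0289 after quantile normalization and -0.0468 to 0.0161 with 1 array left out, and Hmox1 at -0.284 to 0.0688 with 1 array left out; the cause was not tested. Very bright signals such as Fth1 and dim ones such as Alas2 limit what these arrays can show.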
